A study of Mus musculus with 6 samples.

Results

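Transcripts of 10 components of the insulin signalling pathway were followed in mouse liver: the insulin receptor Insr, its adaptors Irs1 and Irs2, the phosphoinositide 3-kinase (PI3-kinase) subunit Pik3r1, the kinases Akt1 and Akt2, the transcription factors Foxo1 and Foxo3, the receptor inhibitor Grb14 and the pseudokinase Trib1. They were taken by gene symbol from the deposited tables, in which each symbol matched 1 of 55487 genes, and all 10 passed the filter on low counts. The 6 libraries were made from liver RNA of C57/Bl6J males kept on HFD, a high-fat diet. All 6 carry Alb cre +/-, a Cre recombinase driven by the albumin promoter and so directed to hepatocytes. For the 3 control libraries this is the whole genotype label. The 3 mutant libraries are labelled RXRa f/f in addition, a state of the gene of the nuclear receptor RXRα, while the series' design text names an S65A mutant of Rxra. The titles call the same groups WT and Cre, and as the labels do not tie libraries to individual animals, p-values reflect variation among libraries, which may be technical.

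As background, insulin binding activates the receptor tyrosine kinase encoded by Insr, which phosphorylates the adaptors IRS1 and IRS2. These recruit PI3-kinase, whose lipid product activates AKT, and AKT phosphorylates the FoxO factors so that they leave the nucleus. In liver this shuts down FoxO-driven genes of glucose production and raises genes of fat synthesis, and the transcripts of Insr and Irs2 are themselves known FoxO targets. The values here are transcript levels and do not show phosphorylation or protein.

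Library totals ran from 35847386 to 43162557 estimated counts. Levels are given as CPM, the counts scaled to a common library size, after TMM scaling, which sets the typical gene equal between groups, and TPM values, which are scaled by transcript length, serve to compare genes within a library. At library totals without this scaling the median log2 fold change over all tested genes was -0.40, and on the log2(TPM + 1) scale it was -0.49, so every change below is relative to the typical gene. Major urinary protein genes took 1.85 to 3.09% of the counts in the controls and 12.8 to 16.9% in the mutants. Rxra itself was counted in all 6 libraries, at 413 to 501 CPM in control and 522 to 699 CPM in mutant libraries (log2 fold change 0.40 ± 0.13, edgeR adjusted p = 0.0724), and gene-level values do not show which form is encoded. Of 11 hepatocyte markers found, 6 were called higher in the mutants by edgeR, with a summed level of 92713 to 102626 CPM in control and 109609 to 114940 CPM in mutant libraries. At library totals that order is the opposite, 106153 to 117708 against 94596 to 100063 CPM. Of 10 stellate cell markers 8 were lower, with sums of 345 to 362 CPM in control and 128 to 165 CPM in mutant libraries. Of 9 markers of monocyte-derived macrophages 7 were lower, with sums of 164 to 215 and 89.1 to 91.6 CPM. Of 8 sinusoidal endothelial markers 3 were lower, with overlapping sums of 128 to 219 and 96.2 to 143 CPM. Of 7 Kupffer cell markers 1 was lower, with sums of 222 to 309 and 97.1 to 201 CPM. Over all tested genes 6.64% were called higher and 6.82% lower. No marker of these lists was at 0. In bulk RNA, fewer cells of a type and less RNA per cell cannot be told apart.

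Of the 10 transcripts, Foxo1, Foxo3 and Grb14 rose relative to the typical gene in the mutant livers, by 1.57-fold to 1.75-fold. FOXO1 and FOXO3 are the forkhead factors that AKT restrains, and GRB14 is an adaptor that binds the activated insulin receptor and blocks its kinase. None of the 10 was called lower by edgeR at an adjusted p under 0.05, and none had a negative log2 fold change with an unadjusted p under 0.05; DESeq2 called 3 higher and 0 lower. Over all 14286 tested genes 6.64% were called higher and 6.82% lower. For 3 of the 10 transcripts every mutant library lay outside the range of the controls in CPM, against 34.9% of all tested genes. In unscaled TPM 5 of the 10 were apart, each lower in the mutants (Irs1, Pik3r1, Akt1, Akt2 and Trib1), against 66.4% of all tested genes. The median log2 fold change of the 10 was 0.12, against 0.00 over all tested genes, with a range from -0.43 for Irs1 to 0.81 for Foxo1. At library totals the median of the 10 was -0.28, with 0 called higher and 4 lower, where 2.05% of all genes were called higher and 31.5% lower. With limma on log2(TPM + 1) 0 were higher and 5 lower, against 1.88% and 63.6% of all genes.

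**Figure D1:**
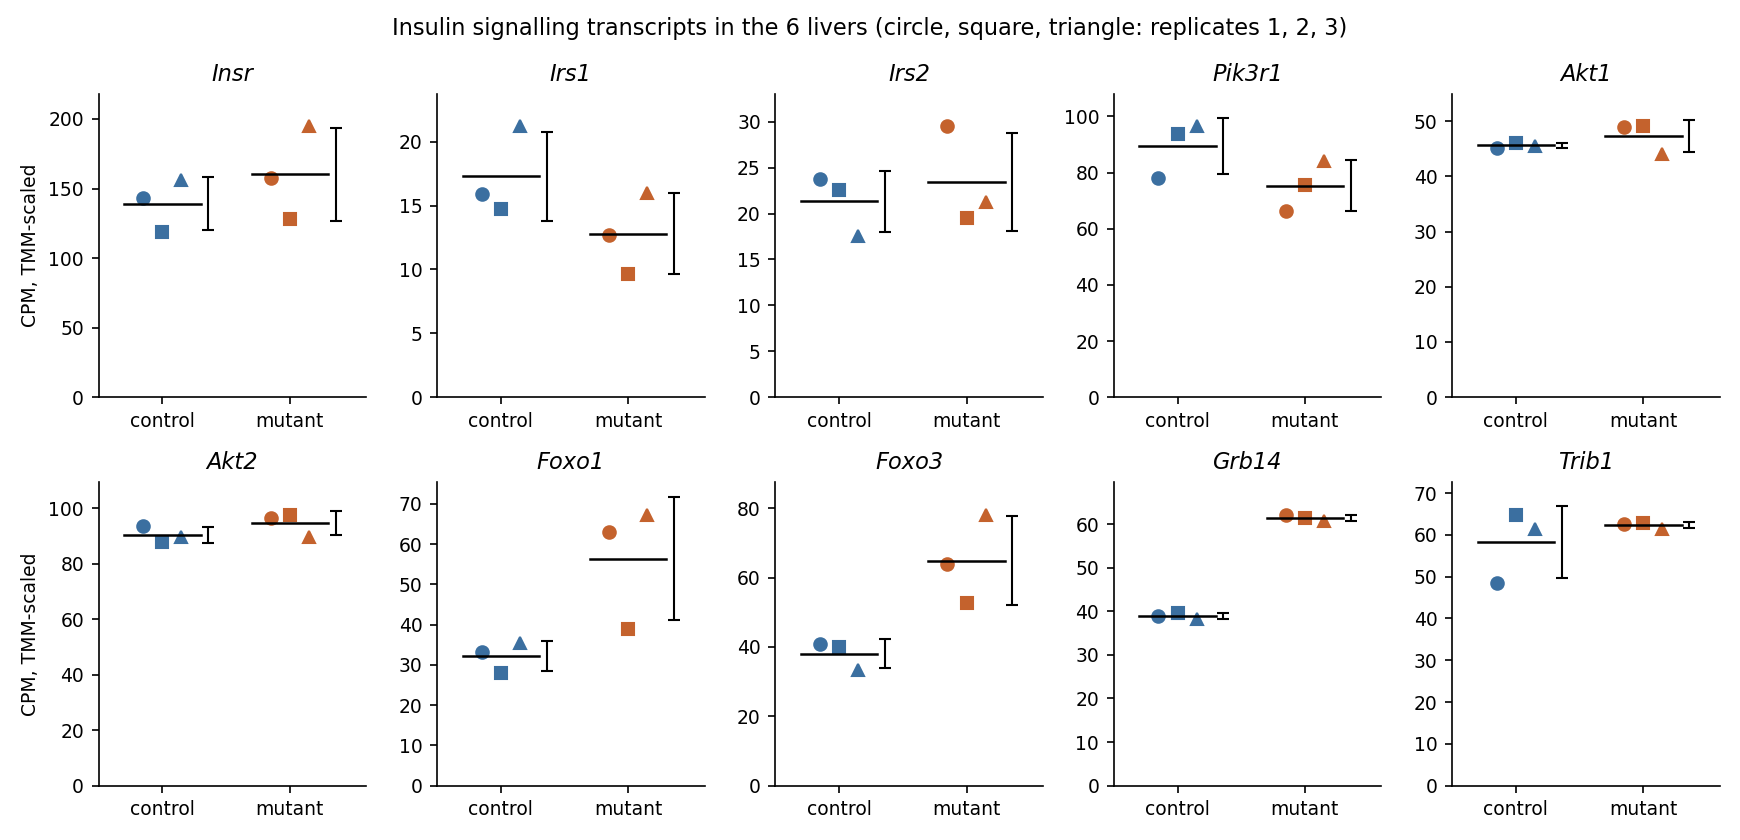
Level of each of the 10 transcripts in CPM after TMM scaling (vertical axes, each starting at 0) in the 3 control and 3 mutant libraries. Points are libraries, horizontal lines are group means and the bars beside them are SD; the groups are apart for Foxo1, Foxo3 and Grb14 and overlap for the other 7.

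The levels per transcript length set the frame for these changes. In the controls Akt2 was the highest of the 10 at 49.8 ± 1.48 TPM (SD, n = 3), followed by Grb14 at 37.8 ± 0.411, Pik3r1 at 33.8 ± 3.98, Insr at 32.6 ± 4.75 and Akt1 at 29.0 ± 0.437 TPM. Below these stood Trib1 at 21.7 ± 3.26, Foxo3 at 10.3 ± 1.01, Foxo1 at 5.83 ± 0.723, Irs2 at 5.45 ± 0.797 and Irs1 at 2.94 ± 0.621 TPM. Neighbours in this order overlapped over the control libraries for Pik3r1 and Insr, Insr and Akt1, and Foxo1 and Irs2, and did not overlap for the other pairs. In the mutants Grb14 stood first at 39.4 ± 1.99 TPM and Akt2 second at 34.5 ± 1.76 TPM, without overlap, and Irs1 remained the lowest at 1.44 ± 0.396 TPM.

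INSR is the receptor on which the pathway turns. Insr (chromosome 8, 3122061 to 3279617, minus strand, mm10) stood at 143, 118 and 156 CPM in controls 1, 2 and 3, against 158, 128 and 195 CPM in mutants 1, 2 and 3. The groups overlapped, and mutant replicate 3 was the highest of all 6 libraries. The log2 fold change was 0.20 ± 0.17 (standard error) with an adjusted p of 0.465 in edgeR's quasi-likelihood test and a 95% interval of -0.17 to 0.58, and its sign turned to -0.19 at library totals and -0.39 on the log2(TPM + 1) scale.

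Grb14 (ENSMUSG00000026888.14, chromosome 2, 64912476 to 65024987, minus strand), the inhibitor of the receptor, was the most evenly expressed of the 3 that rose. It stood at 39.0, 39.7 and 38.3 CPM in controls 1, 2 and 3, against 62.2, 61.3 and 60.7 CPM in mutants 1, 2 and 3. The libraries of a genotype differed by far less than the genotypes did, with a coefficient of variation of 1.82% in the controls and 1.26% in the mutants. The log2 fold change was 0.65 ± 0.09, a 1.57-fold rise (edgeR adjusted p = 0.00322), and it stayed called on leaving out each of the 6 libraries in turn, at 0.64 to 0.67. Rises of like size were called for hepatocyte markers such as Hnf4a (1.59-fold) and Ahsg (1.55-fold). The 5 of the 11 markers that were not called did not share this rise, with log2 fold changes from -0.37 for Hpx to 0.06 for Alb. On unscaled values the 2 groups were close: Grb14 had 37.6, 38.3 and 37.6 TPM in the controls and 41.4, 37.4 and 39.5 TPM in the mutants, and the log2 fold change was 0.26 at library totals (adjusted p = 0.0558) and 0.06 on the log2(TPM + 1) scale (limma adjusted p = 0.547). The log2 fold change of Grb14 exceeded that of 92.7% of tested genes after TMM scaling, 92.6% at library totals and 94.2% on the TPM scale. A change of scaling shifts all genes nearly alike, so these positions had to stay close and are no separate support for the rise. Within a library the ratio of Grb14 to Insr in TPM was 1.13, 1.39 and 1.02 in the controls and 1.64, 1.99 and 1.29 in the mutants. These ratios overlapped (two-sided exact permutation p = 0.2, adjusted over 6 ratios p = 0.6; 3 libraries against 3 cannot go below 0.1).

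The adaptors IRS1 and IRS2 carry the signal from the receptor to PI3-kinase. Irs1 (chromosome 1, 82233101 to 82291416, minus strand) stood at 15.9, 14.7 and 21.2 CPM in controls 1, 2 and 3, against 12.7, 9.65 and 16.0 CPM in mutants 1, 2 and 3. Its mean was lower in the mutants, but mutant replicate 3 lay above control replicates 1 and 2. At -0.43 ± 0.21 on the log2 scale the difference missed the threshold (edgeR adjusted p = 0.217, 95% interval -0.92 to 0.05), and it was -0.83 and called at library totals (adjusted p = 0.0198). An opposite-strand gene, Gm9747, shares 2822 exonic bases with Irs1 and had 946 estimated counts over the 6 libraries, and as the strandedness of the counting is not given in the sources used here, reads of the 2 genes may not have been told apart.

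Irs2 (chromosome 8, 10984681 to 11008458, minus strand) stood at 23.8, 22.6 and 17.6 CPM across the controls, against 29.5, 19.5 and 21.2 CPM across the mutants. The groups overlapped: mutant replicate 1 was the highest library and control replicate 3 the lowest. The difference was 0.14 ± 0.18 on the log2 scale (edgeR adjusted p = 0.682, 95% interval -0.28 to 0.56) and its sign turned without mutant replicate 1 (-0.07), at library totals (-0.26) and on the log2(TPM + 1) scale (-0.38). The ratio of Irs1 to Irs2 in TPM was 0.442, 0.431 and 0.801 in the controls and 0.285, 0.327 and 0.4997 in the mutants, so Irs2 was above Irs1 in all 6 libraries. The ratio was 1.48-fold lower in the mutants (exact permutation p = 0.3, adjusted over 6 ratios p = 0.6), within the spread of the libraries.

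The promoters of the 2 adaptors are shown because both pair an E-box, the site of basic helix-loop-helix factors such as SREBP1c, with the core of an insulin response element, a site known to be bound by FoxO. The sequences run from 250 bases before to 50 bases after the RefSeq start site (GRCm38.p6, 5′ to 3′ on the gene's minus strand), at chr1:82291390-82291689 for Irs1 and chr8:11008880-11009179 for Irs2, with CACGTG and TGTTTTG in capitals.
Irs1: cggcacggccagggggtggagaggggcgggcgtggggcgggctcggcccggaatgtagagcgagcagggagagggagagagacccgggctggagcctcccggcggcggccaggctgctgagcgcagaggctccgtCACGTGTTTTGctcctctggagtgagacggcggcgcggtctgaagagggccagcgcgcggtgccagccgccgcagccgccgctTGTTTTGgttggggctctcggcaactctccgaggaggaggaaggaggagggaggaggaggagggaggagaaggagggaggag
Irs2: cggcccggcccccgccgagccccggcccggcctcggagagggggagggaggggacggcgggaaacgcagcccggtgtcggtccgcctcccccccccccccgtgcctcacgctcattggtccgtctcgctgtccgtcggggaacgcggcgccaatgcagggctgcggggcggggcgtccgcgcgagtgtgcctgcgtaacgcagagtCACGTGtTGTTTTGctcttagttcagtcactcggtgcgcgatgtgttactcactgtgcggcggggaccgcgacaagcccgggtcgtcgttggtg
In Irs1 the E-box at -115 to -110 shares 2 bases with the first response element core at -111 to -105, and a further core lies at -32 to -26. In Irs2 the E-box is at -44 to -39 and the core at -37 to -31. Searched on both strands over 32851 RefSeq promoter windows of this length, the E-box was present in 7.15%, the response element core in 6.28% and both in 0.408%. The 2 windows were chosen for holding the pair, so its rarity over all windows is no test. The Irs2 window lies wholly upstream of the Irs2 span given above, which is from GENCODE M21 and ends at 11008458. A match in letters is a description of the window, and both transcripts missed the test of a change.

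PIK3R1 is the p85α regulatory subunit through which PI3-kinase docks on the adaptors. Pik3r1 (chromosome 13, 101680563 to 101768217, minus strand) stood at 78.0, 93.6 and 96.6 CPM in controls 1, 2 and 3, against 66.2, 75.6 and 84.3 CPM in mutants 1, 2 and 3. Control replicate 1 lay among the mutants. Its log2 fold change was -0.25 ± 0.13, short of the threshold (edgeR adjusted p = 0.236, 95% interval -0.53 to 0.04). Without TMM scaling it was -0.64 at library totals (adjusted p = 0.00683) and -0.81 on the log2(TPM + 1) scale (limma adjusted p = 0.00213), or -0.25 and -0.33 relative to the median gene of each scale. The ratio of Pik3r1 to Pik3ca, the gene of a catalytic subunit, was 1.84, 4.80 and 3.79 in the controls and 3.72, 3.68 and 2.40 in the mutants (exact permutation p = 0.9).

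AKT1 and AKT2 are the kinases that pass the signal on, AKT2 being the main form in liver. Akt1 (chromosome 12, 112653821 to 112674884, minus strand) stood at 45.1, 46.1 and 45.6 CPM across the controls, against 48.9, 49.1 and 44.1 CPM across the mutants. Akt2 (chromosome 7, 27591552 to 27640826, plus strand) stood at 93.4, 87.9 and 89.6 CPM across the controls, against 96.6, 97.7 and 89.7 CPM across the mutants. For both genes mutant replicate 3 lay within or below the range of the controls. The log2 fold changes were 0.05 ± 0.09 for Akt1 (edgeR adjusted p = 0.760, 95% interval -0.16 to 0.27) and 0.07 ± 0.09 for Akt2 (adjusted p = 0.667, 95% interval -0.13 to 0.27). Both signs turned with the scaling, to -0.34 and -0.33 at library totals, which were called lower (adjusted p = 0.0281 and 0.0236), and to -0.52 for both on the log2(TPM + 1) scale. The ratio of Akt1 to Akt2 in TPM, which no scaling between libraries can move, was 0.558, 0.606 and 0.587 in the controls and 0.585, 0.581 and 0.567 in the mutants (exact permutation p = 0.8).

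FOXO1 and FOXO3 end the branch as the transcription factors that AKT keeps out of the nucleus. Foxo1 (ENSMUSG00000044167.6, chromosome 3, 52268336 to 52353221, plus strand) stood at 33.3, 28.1 and 35.4 CPM in controls 1, 2 and 3, against 63.0, 38.9 and 67.4 CPM in mutants 1, 2 and 3. All 3 mutant libraries were above all 3 controls, with mutant replicate 2 far below the other 2 mutants and close to control replicate 3. This is a log2 fold change of 0.81 ± 0.20, a 1.75-fold rise (edgeR adjusted p = 0.0347). This call did not hold on leaving out any library other than mutant replicate 2, with adjusted p-values of 0.0698 to 0.111 and log2 fold changes of 0.66 to 0.88. Without mutant replicate 2 the log2 fold change was 1.01 (adjusted p = 0.00481).

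Foxo3 (ENSMUSG00000048756.11, chromosome 10, 42181841 to 42276755, minus strand) stood at 40.8, 40.1 and 33.4 CPM across the controls, against 63.9, 52.7 and 78.2 CPM across the mutants. The groups did not overlap, and mutant replicate 2 was again the lowest mutant. Its log2 fold change was 0.77 ± 0.16, a 1.70-fold rise (edgeR adjusted p = 0.0171), and leaving out control replicate 2, control replicate 3 or mutant replicate 1 moved the adjusted p to 0.0504, 0.0577 and 0.0506. On unscaled values both FoxO genes kept their direction and lost the call: at library totals the log2 fold changes were 0.41 for Foxo1 (adjusted p = 0.146) and 0.37 for Foxo3 (0.0962), and on the log2(TPM + 1) scale 0.16 and 0.15 (limma adjusted p = 0.529 and 0.447). A change of scaling can hardly move a gene's place among all genes. After TMM scaling, at library totals and on the TPM scale it was above 94.8%, 94.8% and 95.9% of genes for Foxo1. For Foxo3 it was above 94.4%, 94.4% and 95.8%. The ratio of Foxo1 to Foxo3 was 0.548, 0.469 and 0.710 in the controls and 0.660, 0.494 and 0.577 in the mutants, with means of 0.576 ± 0.123 and 0.577 ± 0.0829 (SD, n = 3; exact permutation p = 1).

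**Figure D2:**
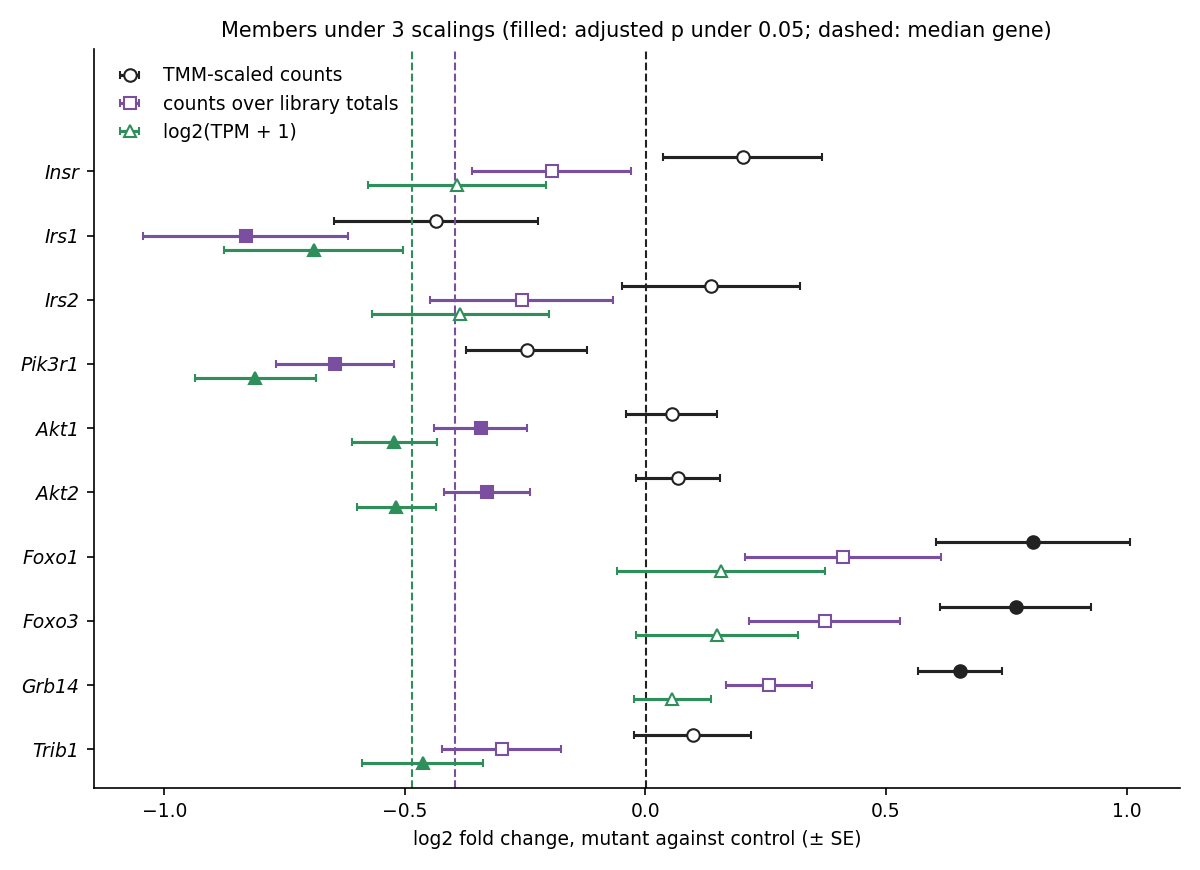
Log2 fold change of each transcript in mutant against control libraries with its standard error, under TMM-scaled counts (circles), counts over library totals (squares) and log2(TPM + 1) in limma (triangles), filled where the adjusted p is under 0.05. Dashed lines mark the median gene of each scaling, at 0.00, -0.40 and -0.49; Foxo1, Foxo3, Grb14, Insr, Irs2 and Trib1 lie to the right of it under all 3, the first 3 of them furthest.

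The promoters of the 3 transcripts that rose together are shown to compare their composition. They are the RefSeq windows at chr3:52268087-52268386 (plus strand) for Foxo1, chr10:42276646-42276945 (minus strand) for Foxo3 and chr2:65022717-65023016 (minus strand) for Grb14 (GRCm38.p6), each given 5′ to 3′ on the gene's strand with the GC box GGGCGG or its reverse CCGCCC in capitals.
Foxo1: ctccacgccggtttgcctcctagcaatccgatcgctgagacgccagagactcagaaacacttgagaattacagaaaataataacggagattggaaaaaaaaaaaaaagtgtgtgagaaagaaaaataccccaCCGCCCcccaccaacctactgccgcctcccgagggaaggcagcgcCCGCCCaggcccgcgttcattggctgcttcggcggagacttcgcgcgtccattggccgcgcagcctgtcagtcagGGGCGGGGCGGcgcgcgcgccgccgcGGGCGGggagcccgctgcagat
Foxo3: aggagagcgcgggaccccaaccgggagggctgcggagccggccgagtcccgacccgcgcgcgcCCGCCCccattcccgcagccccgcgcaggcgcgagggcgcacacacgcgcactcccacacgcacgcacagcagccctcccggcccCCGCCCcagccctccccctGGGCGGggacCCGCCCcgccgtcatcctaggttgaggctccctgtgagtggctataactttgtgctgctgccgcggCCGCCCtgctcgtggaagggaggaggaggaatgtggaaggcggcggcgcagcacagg
Grb14: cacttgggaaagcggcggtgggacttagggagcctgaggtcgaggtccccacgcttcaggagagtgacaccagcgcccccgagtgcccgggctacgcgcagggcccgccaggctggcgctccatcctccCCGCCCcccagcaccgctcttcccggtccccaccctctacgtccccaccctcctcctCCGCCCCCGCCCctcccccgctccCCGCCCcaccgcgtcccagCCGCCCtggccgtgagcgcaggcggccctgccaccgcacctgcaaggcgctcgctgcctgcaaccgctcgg
Each of the 3 windows held 5 GC boxes, 2 of those in Foxo1 sharing a base, and 35.7% of all windows held at least 1. Their GC content was 61.3%, 75.0% and 75.3%, against a median of 52.7% over all windows. This composition was not particular to them: a window of Akt1 held 5 GC boxes at 79.7% GC and a window of Pik3r1 held 4 at 75.7%, and the windows of Irs2 and Irs1 had 72.0% and 71.3% GC. None of the 3 held the FoxO consensus GTAAACA, present in 3.65% of all windows, the insulin response element core, the E-box, the sterol response element (1.24%, searched as TCACNCCAC) or the direct repeat of the nuclear receptor half-site with a spacer of 1 base (0.04%), a form that RXR dimers can bind, when searched on both strands. The table held 13 windows for 8 of the 10 genes, not Insr and Trib1. All 8 had a window with a GC box, and of the 13 windows 1 held GTAAACA, in the upstream window of Akt1. The Grb14 window lies wholly inside the Grb14 span given above, which is from GENCODE M21. On the minus strand that span begins at 65024987, upstream of the window.

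TRIB1 is a pseudokinase that brings the ubiquitin ligase COP1 to the transcription factor C/EBPα. Trib1 (chromosome 15, 59648350 to 59657099, plus strand) stood at 48.5, 64.9 and 61.4 CPM in controls 1, 2 and 3, against 62.6, 63.0 and 61.5 CPM in mutants 1, 2 and 3. The mutants were nearly equal and lay inside the range of the controls, in which control replicate 1 was low. The difference was 0.10 ± 0.12 on the log2 scale (edgeR adjusted p = 0.651, 95% interval -0.18 to 0.38), and it was -0.01 without control replicate 1, -0.30 at library totals and -0.46 on the log2(TPM + 1) scale (limma adjusted p = 0.0151). Of 6 tested partners of TRIB1, 0 were called in edgeR, with 1 higher and 1 lower at an unadjusted p under 0.05 and 1 called higher by DESeq2.

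Ratios to a transcript of the same library do not depend on the scaling between libraries. Akt2, the most abundant of the 10 in the controls, was taken as the reference after the values had been seen. These ratios are therefore a description without a test. After TMM scaling Akt2 itself differed by only 0.07 on the log2 scale, so dividing by it had to give changes near the TMM ones. The ratios are no separate support for those. Grb14 relative to Akt2 was 0.735, 0.794 and 0.752 in the controls and 1.13, 1.10 and 1.19 in the mutants, so that Akt2 exceeded Grb14 in each control library and Grb14 exceeded Akt2 in each mutant library. Foxo1 relative to Akt2 was 0.117, 0.105 and 0.129 in the controls and 0.214, 0.130 and 0.246 in the mutants. Here mutant replicate 2 stood just above the highest control. Foxo3 relative to Akt2 was 0.214, 0.223 and 0.182 in the controls and 0.324, 0.264 and 0.426 in the mutants. For the other 6 transcripts the ratios of the groups overlapped, from a difference of -0.51 for Irs1 to 0.12 for Insr on the log2 scale. The ratio of Insr to Igf1r, the related receptor, was 86.1 to 117 in the controls and 107 to 230 in the mutants (exact permutation p = 0.2, adjusted over 6 ratios p = 0.6), with Igf1r at only 2.48 ± 0.549 CPM in control and 1.62 ± 0.382 CPM in mutant libraries.

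**Figure D3:**
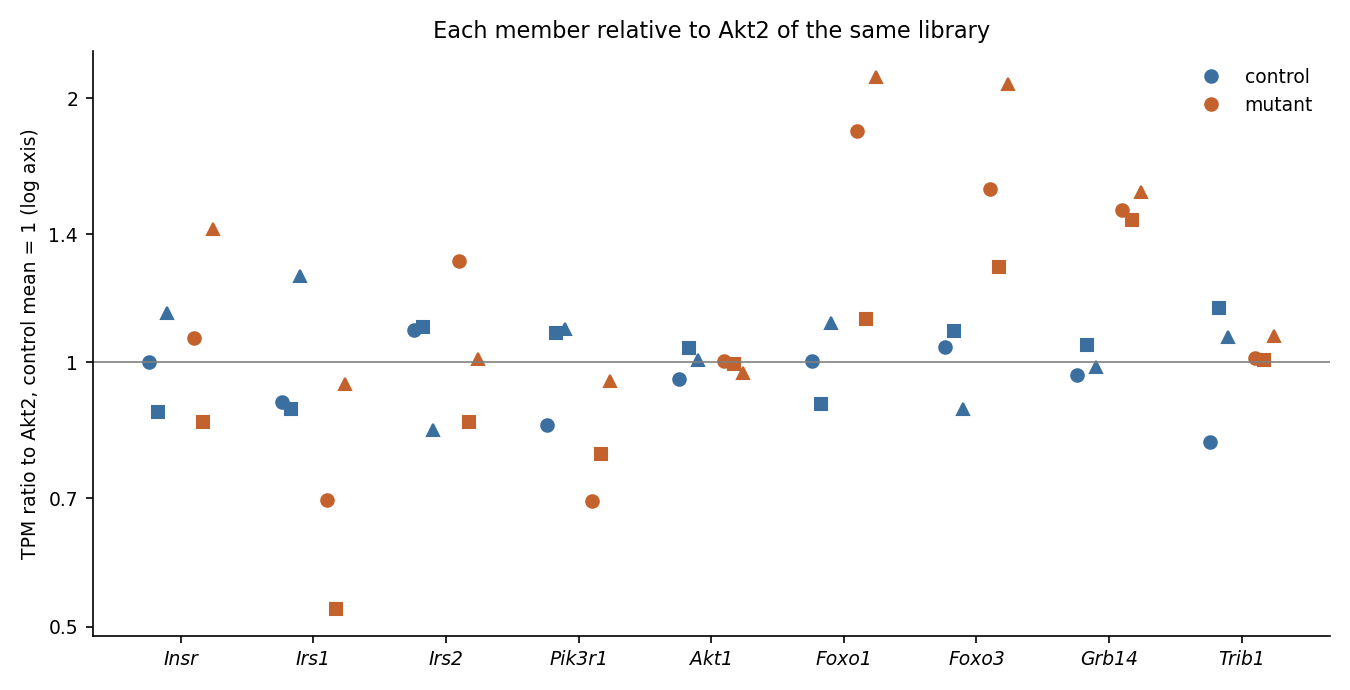
TPM of each transcript divided by that of Akt2 in the same library, set to a control geometric mean of 1 (vertical log axis), with circles, squares and triangles for replicates 1, 2 and 3. The mutant libraries lie above all controls for Foxo1, Foxo3 and Grb14, and the groups overlap for the other 6.

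The 10 transcripts differed in how much they varied among libraries of a genotype. Akt1, Akt2 and Grb14 varied little, with coefficients of variation of 1.11 to 3.07% in the controls and 1.26 to 6.06% in the mutants. Foxo1 varied most in the mutants, by 27.2%, and Irs1 most in the controls, by 20.1%. Insr, Irs1 and Foxo1 shared a pattern: each was lowest in replicate 2 and highest in replicate 3 of both genotypes. In log2 CPM relative to the group mean, Foxo1 stood at -0.19 in control replicate 2 and -0.50 in mutant replicate 2, Insr at -0.22 and -0.30, and Irs1 at -0.21 and -0.37. The exonic lengths of these genes are 13746 bases for Insr, 9144 for Irs1 and 8665 for Foxo1. The 1427 longest tested genes, of at least 9608 exonic bases, had medians of -0.05 in control replicate 2, 0.04 in control replicate 3, -0.10 in mutant replicate 2 and 0.09 in mutant replicate 3. The 1428 shortest had medians of 0.06, -0.06, 0.08 and -0.05 in these libraries. Of the 3 genes only Insr is in the longest group, and Pik3r1, also in it at 10079 bases, stood at 0.07 in control replicate 2 and 0.01 in mutant replicate 2, opposite in sign to the medians there. The part of transcript length in the spread of the 3 genes was not tested.

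**Figure D4:**
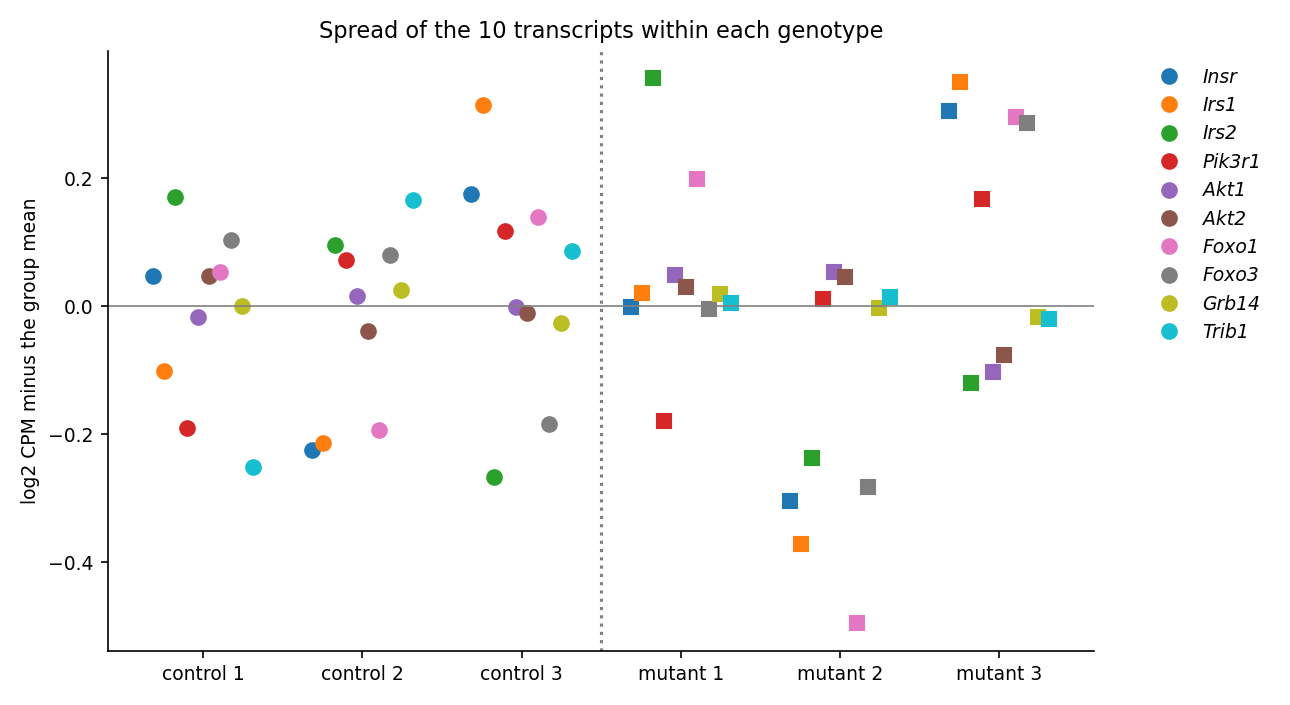
Log2 CPM of each transcript minus the mean of its genotype (vertical axis) in the 6 libraries, circles for controls and squares for mutants, with the genes set side by side. Mutant replicate 2 holds the lowest point, Foxo1 at -0.50, and Grb14 lies close to 0 in all 6 libraries.

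By the root mean square difference of mean-centred log2 CPM over the 6 libraries, the profiles closest to Grb14 among 7216 candidate genes with a mean of at least 10 CPM over all 6 libraries were those of Tra2b, a splicing regulator (0.026), Apoa5, an apolipoprotein (0.031), and Igfbp4, which binds insulin-like growth factors (0.039). Closest to Foxo1 were the prostaglandin transporter Slco2a1 (0.075), Baiap2 (0.090), whose product was first described as a substrate of the insulin receptor, and the betaine transporter Slc6a12 (0.10). Closest to Foxo3 were Lpin2, a phosphatidate phosphatase (0.063), Prr14 (0.078) and the organic cation transporter Slc22a3 (0.082). Slc22a3 averaged 7.18 CPM over control and 12.8 CPM over mutant libraries, so it met the minimum through the mutant libraries. These distances describe 6 libraries, in which any gene with a like difference between genotypes comes close.

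In the wider pathway, 121 further genes were listed in 7 groups, of which 117 were tested. In edgeR 10 rose and 14 fell, 8.55% and 12.0% of them, against 6.64% and 6.82% of all tested genes, and their median log2 fold change was -0.10. At library totals 5 were called higher and 62 lower, around a median gene of -0.40. The count of falling wider genes dropped to 5, 5 and 4 on leaving out control replicate 1, 2 or 3 and to 3 on leaving out mutant replicate 1. Calls were lost over all genes too, where falling genes went from 974 to 431, 491, 554 and 456 in these fits. Without control replicate 3, 6 wider genes rose, and rising genes over all went from 949 to 464.

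**Figure D5:**
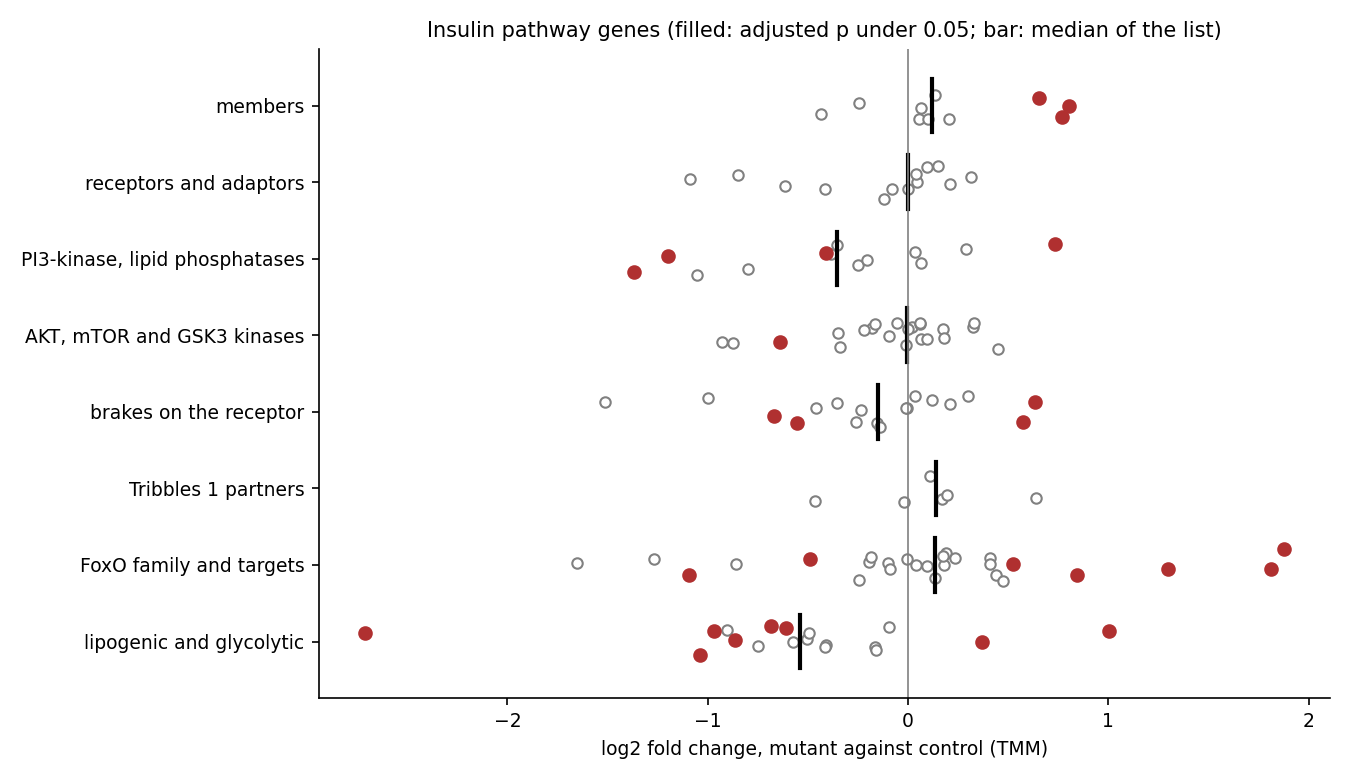
Log2 fold change of the 10 transcripts and of the tested genes of 7 wider groups (rows), mutant against control after TMM scaling, with vertical scatter only to separate points. Filled points passed an adjusted p of 0.05 and bars are group medians; the lipogenic and glycolytic group has the lowest median, at -0.54.

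Receptors and adaptors beside the members showed no called change. Of 13 tested genes, 0 passed edgeR, with 1 higher and 2 lower at an unadjusted p under 0.05 and 1 called lower by DESeq2, and their median log2 fold change was 0.00. Among 13 genes of PI3-kinase and its opposing lipid phosphatases 1 rose and 3 fell, 7.69% and 23.1%, against 6.64% and 6.82% of all tested genes. Inpp4a, a phosphatase of PI(3,4)P2, rose from 9.91 ± 0.781 to 16.5 ± 2.17 CPM (SD, n = 3), a rise that did not pass at library totals (adjusted p = 0.110). Inpp5d (6.89 ± 1.28 to 2.68 ± 0.938 CPM) and Pik3cd (4.43 ± 1.06 to 1.92 ± 0.128 CPM), both best known from blood cells, fell, as did the broadly expressed Inppl1 (31.2 ± 1.68 to 23.5 ± 1.92 CPM). The marker sums of monocyte-derived macrophages fell in the same libraries, from 164 to 215 CPM down to 89.1 to 91.6 CPM. Their part in the fall of Inpp5d and Pik3cd was not tested. Of 22 genes of the AKT, mTOR and GSK3 kinases 0 rose in edgeR, 3 of them being higher at an unadjusted p under 0.05 and 0 called higher by DESeq2, and 1 fell: the AKT relative Sgk3, from 11.0 ± 1.41 to 7.07 ± 0.752 CPM. On leaving out each of the 6 libraries in turn, Inpp4a and Inpp5d were called in 3 fits, Pik3cd in 2, and Inppl1 and Sgk3 in 0, with adjusted p-values up to 0.152 for Inppl1 and 0.137 for Sgk3.

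Of 18 further brakes on the receptor or on later steps, 2 were higher and 2 lower in edgeR. This is 11.1% each way, against 6.64% higher and 6.82% lower over all tested genes. Grb7, of the same adaptor family as Grb14, rose from 61.2 ± 2.72 to 91.0 ± 5.32 CPM (log2 fold change 0.57 ± 0.09, edgeR adjusted p = 0.00714), and Ahsg, the secreted fetuin-A, from 4648 ± 236 to 7208 ± 110 CPM. Both were called on leaving out each of the 6 libraries in turn. Neither passed at library totals (adjusted p = 0.162 and 0.0732), where Grb7 stood at 0.18 and Ahsg at 0.24, and Grb7 turned to -0.02 on the log2(TPM + 1) scale. Ahsg is also among the hepatocyte markers above. Ptpn1, the phosphatase PTP1B that dephosphorylates the receptor, fell from 29.8 ± 3.94 to 20.3 ± 1.92 CPM (log2 fold change -0.55 ± 0.14, edgeR adjusted p = 0.0325), and the protein kinase C gene Prkcd from 11.3 ± 0.630 to 7.13 ± 0.437 CPM. With 1 library left out, Ptpn1 was called in 1 of 6 fits and Prkcd in 2.

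Of 27 tested FoxO relatives and known targets, 5 rose and 2 fell in edgeR, with a median log2 fold change of 0.13. This is 18.5% and 7.41%, against 6.64% and 6.82% of all tested genes. The other 20 were not called, and the listed targets Igfbp1, G6pc and Ppargc1a were not among the called genes. The part of FoxO factors in the changes of listed genes was not tested. Pck1, the gene of the gluconeogenic enzyme PEPCK, stood at 898, 1086 and 825 CPM in controls 1, 2 and 3, against 3705, 2326 and 4286 CPM in mutants 1, 2 and 3. As for Foxo1, mutant replicate 2 was the lowest mutant, still above all controls. Klf15, a factor of fasting metabolism, rose from 70.0 ± 4.81 to 172 ± 36.4 CPM, Klf9 from 121 ± 6.31 to 218 ± 35.8 CPM and the tyrosine transaminase Tat from 374 ± 47.1 to 1314 ± 633 CPM. These 4 genes were also called higher at library totals (log2 fold changes of 1.48, 0.90, 0.45 and 1.42 for Pck1, Klf15, Klf9 and Tat). On the log2(TPM + 1) scale Pck1, Klf15 and Tat stayed called and Klf9 did not (0.23, limma adjusted p = 0.205). Apoc3, which restrains lipoprotein lipase and is also a hepatocyte marker here, rose from 989 ± 94.1 to 1423 ± 106 CPM, and turned to -0.07 on the log2(TPM + 1) scale. The stress-responsive Gadd45a (5.41 ± 0.417 to 2.53 ± 0.704 CPM) and Sesn3 (34.6 ± 2.82 to 24.7 ± 2.96 CPM) fell, both named after their values were seen. Pck1, Klf15 and Klf9 were called on leaving out each of the 6 libraries, Tat in 5 of these fits, Apoc3 in 3, and Gadd45a and Sesn3 in 1 each.

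Genes of fat synthesis and glycolysis and their regulators, not all of them induced by insulin, had the lowest median of the 7 groups, -0.54. Of 18 tested, 6 were lower and 2 higher in edgeR, 33.3% and 11.1%, against 6.82% and 6.64% of all tested genes. The log2 fold change was negative for 16 of the 18, where the median over all tested genes was 0.00. Srebf1, the gene of the lipogenic factor SREBP1, stood at 147, 128 and 152 CPM across the controls, against 104, 87.6 and 87.8 CPM across the mutants. The groups were apart, and the log2 fold change was -0.61 ± 0.11 (edgeR adjusted p = 0.0115). The carboxylase genes Acaca (81.0 ± 23.6 to 39.5 ± 11.9 CPM) and Acacb (64.4 ± 12.3 to 35.3 ± 5.44 CPM) fell with it, and the desaturase gene Scd1 fell furthest, to a log2 fold change of -2.71 ± 0.33. Pfkfb1, which sets the level of a regulator of glycolysis, went the other way, from 19.0 ± 0.450 to 38.0 ± 2.73 CPM (log2 fold change 1.00 ± 0.10, edgeR adjusted p = 0.00103), and stayed called at library totals (0.61). Nr1h3, the gene of the nuclear receptor LXRα, named after its values were seen, rose by a log2 fold change of 0.37 in TMM-scaled counts and turned to -0.03 at library totals and -0.22 on the log2(TPM + 1) scale. Srebf1, Scd1 and Pfkfb1 were called on leaving out each of the 6 libraries, Acacb in 4 of these fits, Acaca in 2 and Nr1h3 in 0.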

How the data were processed

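Per the labels' protocols, DNase-treated total liver RNA was made into poly(A)-enriched libraries and read as pairs of 150 bases (NovaSeq6000). The submitters' processing notes list cutadapt, STAR and the mm10 build; for the counting program, annotation release and strandedness, nothing is stated in the labels or headers. The authors deposited a table of estimated counts and a table of TPM. None of the nonzero estimated counts deposited was a whole number (tolerance 1e-06), and count over TPM split into gene and library factors to within 5.72e-10, so they are rescaled TPM and only approximate read numbers.

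After rounding, the estimated counts of all 6 libraries went into edgeR 4.0.16 (R 4.3.3), with filterByExpr, TMM, a quasi-likelihood fit with genotype as its one term, and Benjamini-Hochberg adjustment over 14286 genes, with calls at an adjusted p under 0.05. Errors of log2 fold changes are standard errors from the F statistic. DESeq2 1.42.0 and limma 3.58.1 on log2(TPM + 1) or log2(TPM + 0.1), for genes reaching 1 TPM in 3 or more libraries, were alternatives, beside other scalings, filters, a replicate block and leaving out each library. Within-library ratios of 2 genes were tested by exact permutation, two-sided. The fit was tested on simulated data, where it recovered 45.6% of 2-fold and 87.0% of 4-fold changes, with 5 false among 132 calls. A change of 2-fold or less can thus be missed, and a transcript that was not called may still differ. Gene positions are from GENCODE M21 and promoters from RefSeq on GRCm38.p6. All 10 genes and Rxra were named, with up to 5 called genes of smallest p in each wider group and, for each called gene of the 10, the 3 most similar profiles. The genes and groups were chosen with earlier results of these data known. The lowest chi-square between 2 libraries was 47.7 per gene, so none were near-duplicates.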

Additional observations from a re-analysis of the deposited data

How the results depend on the processing

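The calls among the 10 transcripts depended on scaling. Those of Foxo1 and Foxo3 also depended on single libraries, for which the cause was not tested. Grb14 stayed called on leaving out each of the 6 libraries. Over all genes 1923 were called, against 4794 at library totals, 7579 with limma on log2(TPM + 1), 7526 on log2(TPM + 0.1), 6581 on log2(TPM + 1) without a filter, and 882 to 1514 on leaving out 1 library. In this order of the 4 alternatives 0, 0, 0 and 0 of the 10 were higher and 4, 5, 5 and 4 lower; with 1 library left out 1 to 3 were higher and 0 lower. Of the wider genes 5, 4, 4 and 3 were higher and 62, 80, 80 and 75 lower. Over all genes 293, 217, 211 and 190 were higher and 4501, 7362, 7315 and 6391 lower. The genes tested in these 4 numbered 14286, 11567, 11567 and 22796. With 1 library left out 6 to 10 wider genes were higher and 3 to 13 lower. Over all 14631 to 14875 genes tested there, 426 to 758 were higher and 431 to 756 lower. At library totals without major urinary protein genes 2 of the 10 were higher, Foxo3 and Grb14, and 1 lower. Foxo1 had an adjusted p of 0.0679 in edgeR there. Of the wider genes 8 were higher and 28 lower, against 405 and 1968 of all 14372 genes tested.

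The log2 fold change reversed at library totals, at totals without major urinary protein genes, on log2(TPM + 1) (the same without a filter) and on log2(TPM + 0.1) for Insr (-0.19, -0.0123, -0.39, -0.40), Irs2 (-0.26, -0.0751, -0.38, -0.46), Akt1 (-0.34, -0.15, -0.52, -0.54), Akt2 (-0.33, -0.14, -0.52, -0.53) and Trib1 (-0.30, -0.11, -0.46, -0.49). These scalings moved the median gene to -0.40, -0.21 and, on log2(TPM + 1), -0.49. Relative to it, TMM, both totals and log2(TPM + 1) gave 0.20, 0.20, 0.20 and 0.09 for Insr, 0.14, 0.14, 0.13 and 0.10 for Irs2, 0.05, 0.05, 0.05 and -0.04 for Akt1, 0.07, 0.07, 0.07 and -0.03 for Akt2, and 0.10, 0.10, 0.10 and 0.02 for Trib1, so the reversals at both totals follow the shift of all genes. The sign also reversed for Irs2 without mutant replicate 1 (-0.0672; 0.245 without mutant replicate 2) and Trib1 without control replicate 1 (-0.0148). With 1 library left out the log2 ratio ran from -0.81 to -0.28 for Irs1 to Irs2, -0.0460 to 0.0132 for Akt1 to Akt2, -0.12 to 0.18 for Foxo1 to Foxo3, 0.31 to 0.62 for Grb14 to Insr, 0.59 to 1.15 for Insr to Igf1r and -0.41 to 0.28 for Pik3r1 to Pik3ca. The sign was reversed for Akt1 to Akt2 without control replicate 2 (0.0132), for Foxo1 to Foxo3 without control replicate 1 (-0.01), control replicate 2 (-0.12) and mutant replicate 1 (-0.09), and for Pik3r1 to Pik3ca without control replicate 2 (0.28), control replicate 3 (0.11) and mutant replicate 3 (0.20). On log2(TPM + 1) Insr to Igf1r was -0.17.

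With a replicate block 1558 genes were called, 3 of the 10 higher; same-numbered libraries correlated at 0.02, -0.003 and 0.06 in their deviations, so the numbers were not taken to pair them, and sign flips over 3 pairs cannot go below p = 0.25. The low Igf1r counts limit its ratio.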
